A study of Mus musculus with 18 samples.

Results

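The 6 genes described here encode surface ligands through which fibroblasts hold or restrain immune cells: Vcam1 and Icam1, which bind leukocyte integrins, Cd274 and Pdcd1lg2, which encode the ligands PD-L1 and PD-L2 of the T-cell receptor PD-1, and Cd200 and Cd47, whose products restrain myeloid cells. They were taken from the count table by gene symbol. They are 6 of the 55486 genes in the count table. Of these, 14273 genes had enough counts to be tested, among them 5 of the 6 ligands, and Pdcd1lg2 was not tested. RNA sequencing was performed on cultured normal fibroblasts (NFs) of the mammary gland of FVB/n mice. CD26- and CD26+ NFs, sorted by antibody against the surface peptidase CD26, were kept for 7 days in control medium or in medium conditioned by tumour cells (CM). Of the 18 libraries, replicates 1 to 3 were control cultures and 4 to 9 CM cultures of CD26- NFs, and replicates 10 to 12 were control cultures and 13 to 18 CM cultures of CD26+ NFs. CM came from 6 cell lines of WEPtn tumours, mouse tumours that model invasive lobular carcinoma, and each line was given to 1 culture of each cell type. Replicates 4 and 13 had CM of line 13-MCB-17, 5 and 14 of 10-SJK-221, 6 and 15 of 18-MCB-12, 7 and 16 of 13-MCB-44, 8 and 17 of 13-MCB-90, and 9 and 18 of 13-MCB-138.

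According to the methods, NFs came from female mice of 8 to 16 weeks, either mice that lack WapCre or mTmG reporter mice, with on average 4 to 6 mice pooled per sort, and were used up to passage 6. Which mice gave which library was not stated, so p-values measure the spread between these cultures and do not show how far mice differ. The sort kept cells without EpCAM, CD49f, CD45 and CD31. Total counts per library ran from 9725723 to 14585349.

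The identity of the cells was checked against marker genes. All 9 fibroblast markers were detected in every group, with a summed level of 8099 to 19870 CPM (counts scaled to the size of the library) in CD26- NFs in CM, 14941 to 16686 CPM in CD26- NFs in control medium, 60479 to 77348 CPM in CD26+ NFs in control medium and 27554 to 50680 CPM in CD26+ NFs in CM. Transcripts of Dpp4, the gene of CD26, reached at most 2 counts in any control library of either cell type, 11 counts in CD26- NFs in CM, and 8 to 104 counts in CD26+ NFs in CM, so the control libraries could not be told apart by Dpp4. Of 12 leukocyte markers, 3 (Cd68, Lyz2 and Csf1r) had more than 3 counts in a library and the pan-leukocyte gene Ptprc had at most 3. All 7 epithelial markers were detected although EpCAM-positive cells had been sorted out, and their summed level was 3745 to 4100 CPM in CD26- NFs in control medium, 2369 to 3844 CPM in CD26- NFs in CM, 625.4 to 1107 CPM in CD26+ NFs in control medium and 570 to 1368 CPM in CD26+ NFs in CM. In RNA from whole cultures, fewer cells of a type and less RNA per cell cannot be told apart.

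VCAM-1 and ICAM-1 are immunoglobulin-family adhesion molecules: VCAM-1 is bound by the integrin of Itga4 and Itgb1 on lymphocytes and monocytes, and ICAM-1 by the beta2 integrins LFA-1 and Mac-1. PD-L1 and PD-L2 inhibit T cells through PD-1, CD200 dampens myeloid cells through its receptor CD200R1, and CD47 binds SIRP-alpha on macrophages as a "do not eat me" signal. NF-kB and interferon signalling are known inducers of Vcam1, Icam1 and Cd274 in stromal cells.

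Promoter windows of RefSeq (GRCm38.p6), each from upstream of the start of a RefSeq transcript to just past it, were found for Icam1, Cd274, Pdcd1lg2, Cd200 and Cd47, 5 of the 6 genes. They were searched on both strands for the kB consensus, the interferon-gamma activated site TTCNNNGAA (GAS) and an interferon regulatory factor motif GAAANNGAA. Windows of 4 genes are shown: Icam1 and Cd274, because they hold a match, and Cd200 and Cd47, because these genes moved in opposite directions. Capitals mark a motif match.
Icam1 (chr9:21015690-21015989, plus strand): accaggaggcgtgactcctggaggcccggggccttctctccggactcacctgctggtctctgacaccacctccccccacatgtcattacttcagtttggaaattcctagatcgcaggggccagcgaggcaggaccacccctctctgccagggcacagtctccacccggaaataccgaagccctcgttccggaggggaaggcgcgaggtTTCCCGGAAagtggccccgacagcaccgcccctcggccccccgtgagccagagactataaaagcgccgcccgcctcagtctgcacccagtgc
Cd274 (chr19:29367188-29367487, plus strand): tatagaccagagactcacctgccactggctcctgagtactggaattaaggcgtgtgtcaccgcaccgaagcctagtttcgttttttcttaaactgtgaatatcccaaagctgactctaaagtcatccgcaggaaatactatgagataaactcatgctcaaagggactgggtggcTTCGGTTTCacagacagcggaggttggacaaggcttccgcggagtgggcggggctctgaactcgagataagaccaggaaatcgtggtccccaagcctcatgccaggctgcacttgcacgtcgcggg
Cd200 (chr16:45409004-45409303, minus strand): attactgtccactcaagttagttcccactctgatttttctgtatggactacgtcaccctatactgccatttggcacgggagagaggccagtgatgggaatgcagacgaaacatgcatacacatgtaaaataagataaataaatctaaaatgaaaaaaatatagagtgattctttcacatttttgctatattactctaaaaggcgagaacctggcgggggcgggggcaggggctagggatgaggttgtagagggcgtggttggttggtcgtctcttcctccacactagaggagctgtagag
Cd47 (chr16:49855404-49855703, plus strand): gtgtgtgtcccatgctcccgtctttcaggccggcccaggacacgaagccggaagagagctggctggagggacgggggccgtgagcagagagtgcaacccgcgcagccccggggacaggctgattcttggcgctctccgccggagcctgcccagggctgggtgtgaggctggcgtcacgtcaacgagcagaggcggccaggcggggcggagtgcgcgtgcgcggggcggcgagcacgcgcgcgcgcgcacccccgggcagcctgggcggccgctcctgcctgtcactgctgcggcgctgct
In the Icam1 window the match is a GAS, TTCCCGGAA, 42 bases before the start. In the Cd274 window it is the interferon regulatory factor motif read on the minus strand, TTCGGTTTC on the strand shown, 76 bases before the start. The window of Pdcd1lg2, not shown, holds a kB consensus, GGGGAATCCC, 244 bases before the start. None of the 3 motifs was found in the windows of Cd200 and Cd47. Of 32851 RefSeq promoter windows of the same length, 4.51% hold the kB consensus, 8.30% the GAS and 8.56% the interferon regulatory factor motif. G and C made up 74.0% of the Cd47 window, 64.7% of that of Icam1, 52.7% of that of Cd274 and 45.0% of that of Cd200, beside a median of 52.7% over all windows. The Cd47 window surrounds the RefSeq start and lies inside the longer GENCODE model of the gene given below, whose start is upstream of it. A match is a stretch of letters and was not tested as a binding site. Sites that depart from the searched letters are missed, so a window without a match may still hold a site.

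Per kilobase of exon, Cd200, Cd47 and Vcam1 stood above Icam1 and Cd274 in each group, by distances that depended on the group. In CD26- NFs in control medium, Cd200 was at 29.5 ± 2.12 CPM per kilobase (SD, n = 3) and Cd47 at 21.7 ± 0.123, followed by Vcam1 at 3.94 ± 0.267, Icam1 at 1.09 ± 0.353 and Cd274 at 0.545 ± 0.137. In CD26+ NFs in CM, Cd47 led with 53.0 ± 5.91 CPM per kilobase (SD, n = 6), followed by Vcam1 at 19.7 ± 3.42, Cd200 at 5.68 ± 2.26, Icam1 at 0.950 ± 0.334 and Cd274 at 0.364 ± 0.133. Cd200 thus stood above Vcam1 in the first group and below it in the second, while Icam1 and Cd274 were the lowest of the 5 in both. Pdcd1lg2, which was not tested, lay below them. All values below compare 1 gene between libraries and are in CPM without length correction.

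**Figure D1:**
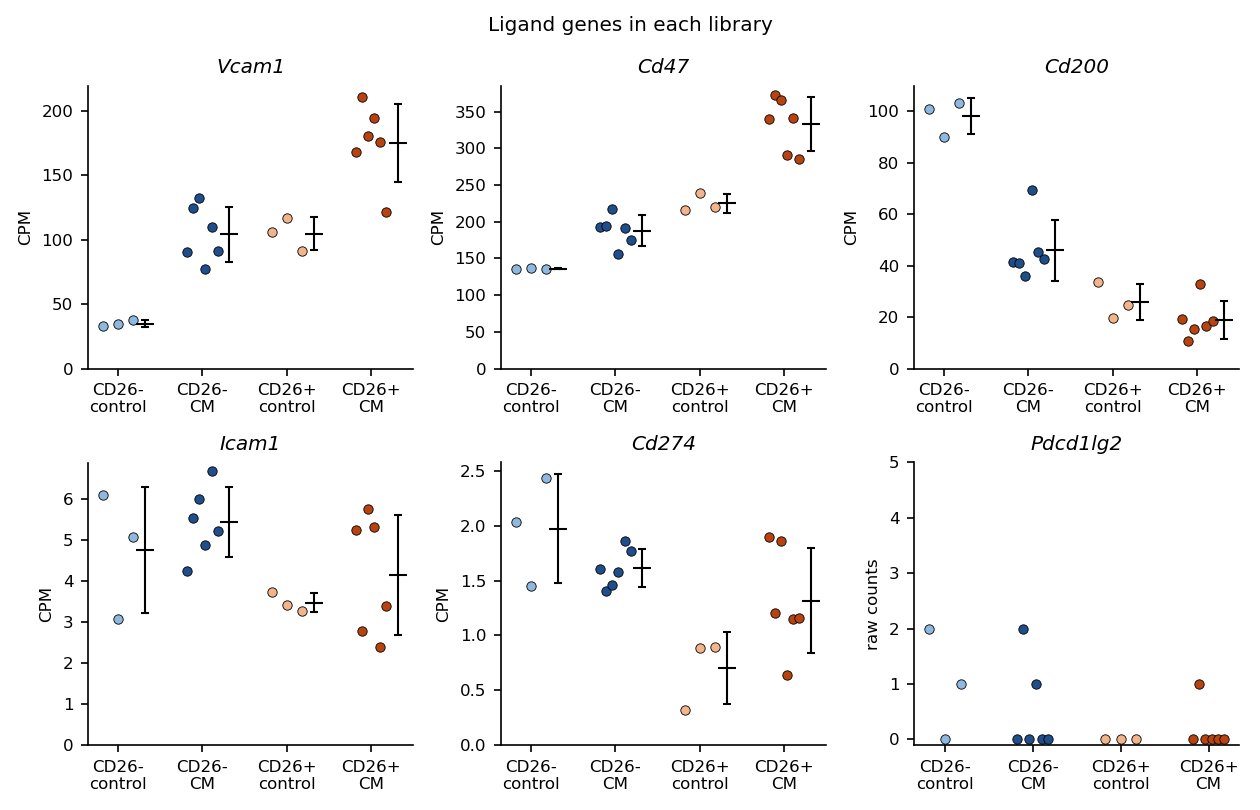
CPM of 5 ligand genes and raw counts of Pdcd1lg2 (vertical axes) in each of the 18 libraries, by cell type and medium (horizontal axes). Points are libraries and the bars beside them the mean with SD (n = 3 for control medium, n = 6 for CM). Vcam1 and Cd47 are lowest in CD26- NFs in control medium and highest in CD26+ NFs in CM, Cd200 runs the other way, and Pdcd1lg2 has at most 2 counts in a library.

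Vcam1 (ENSMUSG00000027962, GRCm38 chromosome 3, 116109949 to 116129688, minus strand) was higher in CM in both cell types and higher in CD26+ than in CD26- NFs in both media. In CD26- NFs in control medium it was at 32.6, 34.8 and 37.4 CPM in replicates 1 to 3, and in CM it ran from 77.2 CPM (line 13-MCB-44) over a median of 101 CPM to 132 CPM (line 18-MCB-12). In CD26+ NFs it was at 106, 117 and 91.1 CPM in control medium and ran in CM from 121 CPM (line 13-MCB-138) over a median of 178 CPM to 210 CPM (line 10-SJK-221). The 6 CM libraries of each cell type lay above all of its control libraries. CD26- NFs in CM reached the level of CD26+ NFs in control medium, with means of 104 ± 21.4 CPM and 105 ± 12.9 CPM whose libraries overlapped.

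The CM effect on Vcam1, as a log2 fold change (log2 change below), was 1.58 ± 0.18 (SE; edgeR FDR 8.75e-05) in CD26- NFs, a 2.98-fold rise, and 0.74 ± 0.16 (edgeR FDR 0.00282) in CD26+ NFs, a 1.67-fold rise. FDR stands for the Benjamini-Hochberg adjusted p over all genes of the comparison, and a gene passed at an FDR under 0.05. CD26+ NFs were above CD26- NFs by 1.58 ± 0.20 on the log2 scale in control medium (edgeR FDR 3.70e-06) and by 0.75 ± 0.13 in CM (edgeR FDR 9.50e-05), in the latter case with overlapping libraries. The rise in CM was smaller in CD26+ than in CD26- NFs, by a difference in log2 change of -0.83 ± 0.23 (edgeR FDR 0.0376, 95% interval -1.33 to -0.33). This difference in CM effect missed the threshold without any 1 of replicates 1, 2, 3, 5, 6, 8, 10, 11, 13 or 17, with an FDR of up to 0.112, and with the level of epithelial markers as a covariate (-0.77, edgeR FDR 0.0644). In a fit blocked on the CM line it passed (-0.83, edgeR FDR 0.00674).

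Markers of skeletal muscle moved with the CM in CD26- NFs, where their summed level was 7.09 to 54.6 CPM against at most 1.26 CPM in every other library. Vcam1 was at 110 CPM in the library with the highest level, replicate 8, and at 124 CPM in that with the lowest, replicate 5. In replicates 9, 7, 6 and 4 the muscle markers summed to 10.8, 13.6, 19.5 and 23.5 CPM. Vcam1 was at 91.3, 77.2, 132 and 90.7 CPM in these libraries. In CD26+ NFs the muscle markers were at or near 0 in both media, where Vcam1 rose as well. Endothelial markers summed to 3.97 to 5.14 CPM in CD26- NFs in control medium, 3.76 to 8.85 CPM in CM and 1.94 to 3.55 CPM in CD26+ NFs, and 1 of the 3 tested, Cdh5, rose in CM in CD26- NFs from a mean of 1.63 to 3.78 CPM (log2 change 1.22, edgeR FDR 0.0121). Markers of pericytes and smooth muscle summed to 200 to 214 CPM in CD26- NFs in control medium, 90.1 to 202 CPM in CM and 61.6 to 107 CPM in CD26+ NFs. The part of these cells in the Vcam1 level was not tested.

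Icam1 (ENSMUSG00000037405, chromosome 9, 21015985 to 21028817, plus strand) passed the test in no comparison. It was at 6.10, 3.07 and 5.08 CPM in CD26- NFs in control medium and at 4.24 to 6.67 CPM (median 5.38) in CM. In CD26+ NFs it was at 3.72, 3.41 and 3.26 CPM in control medium and at 2.40 to 5.74 CPM (median 4.31) in CM. All 4 groups overlapped with at least 1 other. The CM effect was a log2 change of 0.20 ± 0.25 in CD26- NFs (edgeR FDR 0.643, 95% interval -0.34 to 0.73; -0.0330 to 0.40 with 1 library left out, below 0 without replicate 2) and of 0.26 ± 0.26 in CD26+ NFs (edgeR FDR 0.496, 95% interval -0.30 to 0.83; 0.14 to 0.37 with 1 library left out), so a change of 2-fold in either direction lay outside both intervals. CD26+ NFs differed from CD26- NFs by -0.45 ± 0.30 in control medium (edgeR FDR 0.223; -0.68 to -0.24 with 1 library left out) and by -0.39 ± 0.20 in CM (edgeR FDR 0.115).

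Cd274 (ENSMUSG00000016496, chromosome 19, 29367455 to 29388095, plus strand) was scarce, with 4 to 36 counts in a library. In control medium it was at 2.03, 1.45 and 2.44 CPM in CD26- NFs and at 0.324, 0.889 and 0.890 CPM in CD26+ NFs, without overlap, and the log2 change of CD26+ against CD26- NFs was -1.48 ± 0.36 (edgeR FDR 0.00231). With the level of epithelial markers as a covariate this change missed the threshold (-2.16, edgeR FDR 0.0610). In CM the groups overlapped, with 1.40 to 1.86 CPM (median 1.59) in CD26- NFs and 0.634 to 1.90 CPM (median 1.18) in CD26+ NFs, and the difference was -0.28 ± 0.24 (edgeR FDR 0.321; -0.43 to -0.15 with 1 library left out). The CM effect had a log2 change of -0.31 ± 0.27 in CD26- NFs (edgeR FDR 0.486; -0.48 to -0.11 with 1 library left out) and of 0.89 ± 0.34 in CD26+ NFs, which missed the threshold (edgeR FDR 0.0561). The latter value depended on single libraries in both directions: the log2 change was 0.56 (edgeR FDR 0.260) without control replicate 10, which had 4 counts, and 1.02 (edgeR FDR 0.0171) without replicate 16, which had the lowest Cd274 level of the CD26+ NFs in CM, and it was at most 1.08 over all such fits. The difference between the CM effects was 1.19 ± 0.43 (edgeR FDR 0.0943).

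Pdcd1lg2 (ENSMUSG00000016498, chromosome 19, 29410919 to 29471161, plus strand) lies 22823 bases downstream of Cd274 and was barely detected. It had 7 counts over all 18 libraries: 2 in replicate 1, 1 in replicate 3, 2 in replicate 5, 1 in replicate 7 and 1 in replicate 14. A count of 0 allows up to 3 counts, which is 0.203 to 0.290 CPM at these depths, as far as counting error goes. No difference between groups could be detected at this depth.

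Cd200 (ENSMUSG00000022661, chromosome 16, 45382135 to 45409053, minus strand) was highest in CD26- NFs in control medium and fell in these cells in CM. It was at 101, 90.1 and 103 CPM in CD26- NFs in control medium and at 35.9 to 69.3 CPM (median 42.0) in CM. In CD26+ NFs it was at 33.5, 19.6 and 24.9 CPM in control medium and at 10.7 to 32.8 CPM (median 17.5) in CM. Every CD26- library stood above every CD26+ library. The log2 change in CM was -1.10 ± 0.24 in CD26- NFs (edgeR FDR 0.00546), which leaves 0.468 of the control level, and -0.46 ± 0.26 in CD26+ NFs (edgeR FDR 0.203), where the groups overlapped. CD26+ NFs were below CD26- NFs by a log2 change of -1.92 ± 0.29 in control medium (edgeR FDR 3.36e-05) and of -1.28 ± 0.21 in CM (edgeR FDR 5.53e-05). The difference between the CM effects, 0.64 ± 0.36, did not pass (edgeR FDR 0.283; 0.39 to 0.86 with 1 library left out), so a response particular to CD26- NFs was not shown. In a fit blocked on the CM line this difference was 0.61 and lay just above the threshold (edgeR FDR 0.0532). The value in CD26+ NFs depended on single libraries, with a log2 change of -0.24 (edgeR FDR 0.621) without control replicate 10 and of -0.70 (edgeR FDR 0.0219) without replicate 16.

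Cd47 (ENSMUSG00000055447, chromosome 16, 49800533 to 49915010, plus strand) rose in CM in both cell types and was higher in CD26+ NFs throughout. In control medium it was at 135, 137 and 136 CPM in CD26- NFs and at 216, 240 and 219 CPM in CD26+ NFs. In CM it ran from 156 to 217 CPM (median 192) in CD26- NFs and from 286 to 373 CPM (median 341) in CD26+ NFs. The groups overlapped only where CD26- NFs in CM met CD26+ NFs in control medium. The log2 change in CM was 0.47 ± 0.10 in CD26- NFs (edgeR FDR 0.00401), a 1.38-fold rise, and 0.56 ± 0.10 in CD26+ NFs (edgeR FDR 0.000313), a 1.48-fold rise. These effects did not differ beyond their error, with a difference of 0.10 ± 0.13 (edgeR FDR 0.696, 95% interval -0.19 to 0.38). With 1 library left out this difference was 0.05 to 0.14. CD26+ NFs were above CD26- NFs by 0.73 ± 0.11 on the log2 scale in control medium (edgeR FDR 2.60e-05) and by 0.82 ± 0.08 in CM (edgeR FDR 8.11e-08).

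**Figure D2:**
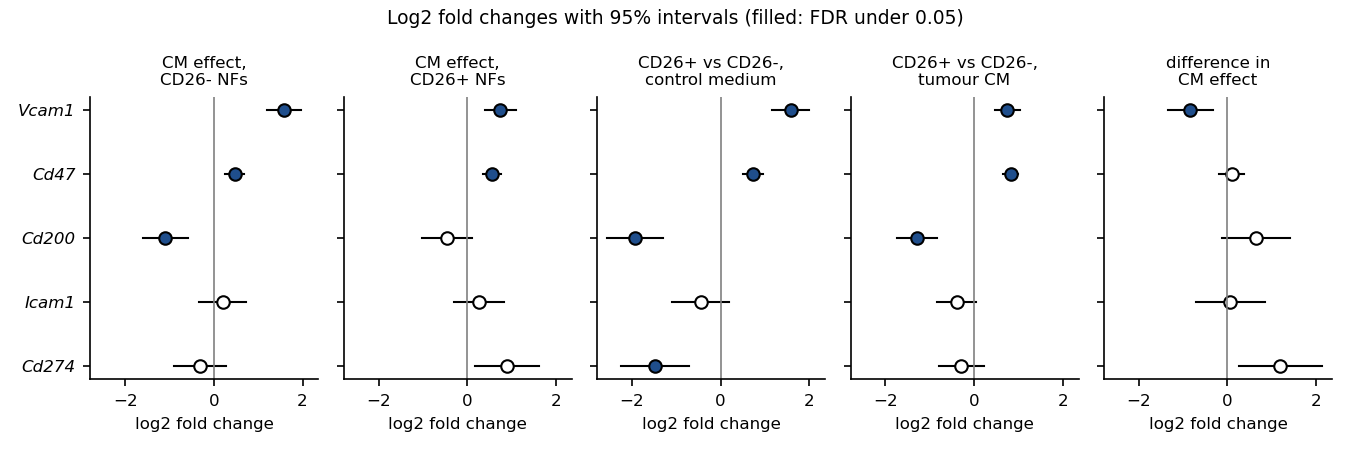
Log2 fold changes (horizontal axes) of the 5 tested ligand genes (vertical axes) in the 5 comparisons, with 95% intervals as lines. Filled points passed an edgeR FDR under 0.05 and open points did not. Vcam1 and Cd47 lie to the right of 0 and Cd200 to the left in both comparisons of the cell types, and Icam1 is open in every panel.

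Counted together and set beside all tested genes, the CM of CD26- NFs raised 2 of the 5 tested ligands, where 7.88% of all genes were higher, and lowered 1, where 7.28% were lower. In CD26+ NFs 2 of 5 rose beside 15.2% of all genes and 0 fell beside 13.4%. In control medium 2 ligands were higher in CD26+ NFs beside 25.0% of all genes and 2 were lower beside 25.4%, and in CM 2 were higher beside 29.3% and 1 was lower beside 29.3%. The difference in CM effect was positive for 0 ligands beside 4.53% of all genes and negative for 1 beside 3.01%. Nothing particular to the ligands is read from these counts. No ligand passed the study's further fold limit, which is 2 on the log2 scale in either direction. The comparisons share control or CM libraries, so a ligand's values in them are not independent.

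The lines were then compared over the 12 CM libraries, with cell type as a term. In this test 6.56% of 13344 genes differed among lines, and 2 of the 5 tested ligands did: Cd200 (edgeR FDR 0.0328) and Cd47 (edgeR FDR 0.0350). Vcam1 (edgeR FDR 0.275), Icam1 (edgeR FDR 0.862) and Cd274 (edgeR FDR 0.776) did not pass. CM of 13-MCB-44 gave the highest Cd200 level in both cell types, 69.3 CPM in CD26- and 32.8 CPM in CD26+ NFs, and the lowest or next to lowest Cd47 level, 156 CPM and 290 CPM. CM of 18-MCB-12 and 10-SJK-221 stood at the other end for Cd47, with 217 and 195 CPM in CD26- NFs and 366 and 373 CPM in CD26+ NFs. The calls rested on single libraries: leaving out 1 of the 12 moved the FDR of Cd200 to between 0.00741 and 0.193 and that of Cd47 to between 0.00881 and 0.117, above the threshold in 7 and 10 of 12 fits.

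Within the lines, the contrast between the cell types held for Cd47, Vcam1 and Cd200. Cd47 was higher in CD26+ NFs in 6 of 6 lines, by 0.70 to 0.94 on the log2 scale, and Vcam1 in 6 of 6 lines, by 0.41 to 1.33. Cd200 was lower in CD26+ NFs in 6 of 6 lines, by a log2 difference of -1.94 to -1.07. Icam1 and Cd274 were each higher in CD26+ NFs in 2 of 6 lines.

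**Figure D3:**
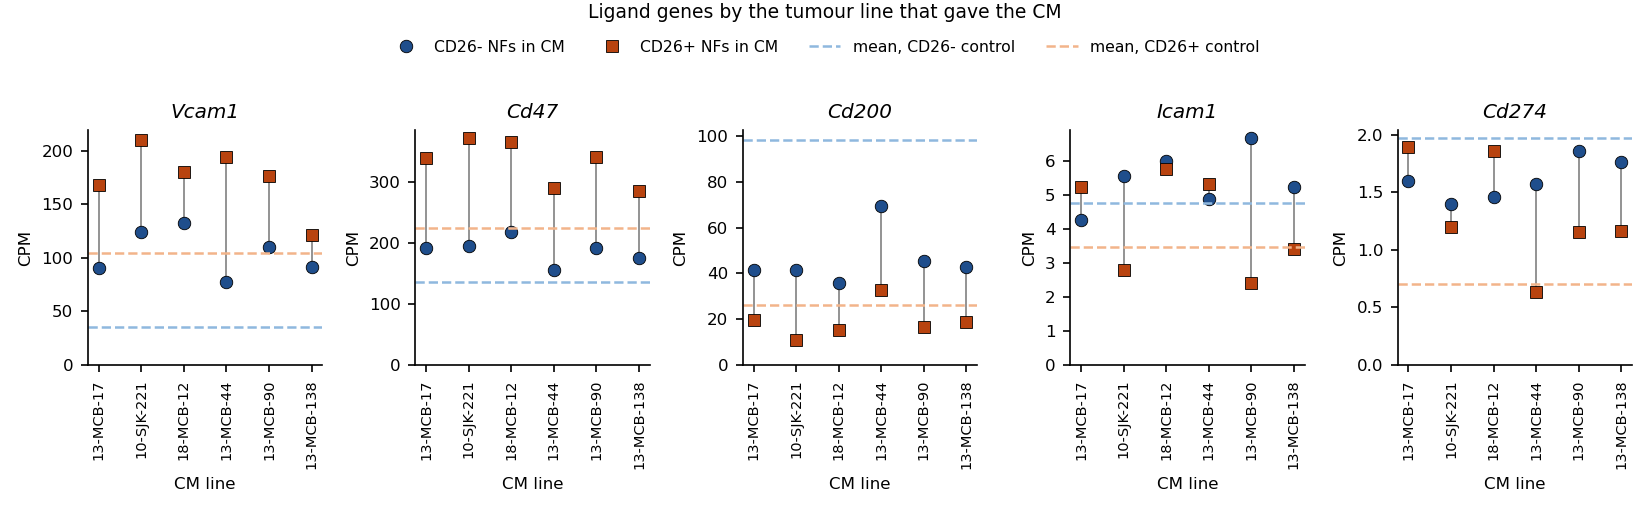
CPM of the 5 tested ligand genes (vertical axes) in CD26- NFs (circles) and CD26+ NFs (squares) given CM of each of 6 tumour lines (horizontal axes), 1 library per point. Dashed lines are the control means (n = 3). In all 6 lines Vcam1 and Cd47 are higher and Cd200 lower in CD26+ NFs, and line 13-MCB-44 has the highest Cd200 level in both cell types.

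The ligands were set beside the level of epithelial markers. Of the 7 markers, 6 were lower in CD26+ NFs in each medium, beside 25.4% of all genes in control medium and 29.3% in CM. With CM 0 passed in either cell type, where 7.28% of all genes were lower in CD26- and 13.4% in CD26+ NFs. The median log2 change of the 7 markers in CM was -0.41 in CD26- NFs and -0.07 in CD26+ NFs. Epcam itself had a mean of 231 CPM in CD26- NFs in control medium, 164 CPM in CM, 58.4 CPM in CD26+ NFs in control medium and 50.1 CPM in CM. Within the 6 CM libraries of CD26- NFs, log2 Cd200 rose with the log2 summed marker level (Pearson r = 0.906, exact permutation p = 0.00556, adjusted over 10 relations p = 0.0556; Spearman rho = 0.886, exact permutation p = 0.0333, adjusted p = 0.167). Without the 2 libraries farthest from the median marker level, r was 0.679. Within those of CD26+ NFs, r was 0.848 (exact permutation p = 0.0319, adjusted p = 0.106; rho = 0.771, exact permutation p = 0.103, adjusted p = 0.343), and 0.679 without the 2 farthest. Cd47 ran the other way in CD26- NFs, with r = -0.946 (exact permutation p = 0.0125, adjusted p = 0.0625; rho = -0.943, exact permutation p = 0.0167, adjusted p = 0.167) and -0.619 without the 2 farthest, and in CD26+ NFs r was -0.596 (exact permutation p = 0.219, adjusted p = 0.366; rho = -0.543, exact permutation p = 0.297, adjusted p = 0.495) and -0.0894 without the 2 farthest. For Vcam1, r was -0.738 in CD26- NFs (0.0643 without the 2 farthest) and 0.118 in CD26+ NFs. For Cd274 it was 0.399 in CD26- NFs and -0.683 in CD26+ NFs (0.321 without the 2 farthest), and for Icam1 -0.110 and 0.128. None of the 10 relations passed after adjustment. The line that gave the highest Cd200 level in both cell types, 13-MCB-44, also had the highest marker level in both, 3844 and 1368 CPM.

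With the mean log2 level of the 7 markers as a covariate, the difference in Cd200 between CD26+ and CD26- NFs was no longer seen: its log2 change was -0.11 ± 0.25 in control medium (edgeR FDR 0.831) and 0.19 ± 0.20 in CM (edgeR FDR 0.558). That of Cd47 was 0.25 ± 0.16 (edgeR FDR 0.358) in control medium and 0.43 ± 0.13 (edgeR FDR 0.0295) in CM, and that of Vcam1 was 1.28 ± 0.34 (edgeR FDR 0.0287) and 0.50 ± 0.26 (edgeR FDR 0.204). The CM effects in CD26- NFs passed with the covariate, with 1.49 ± 0.19 for Vcam1 (edgeR FDR 0.000543), -0.64 ± 0.12 for Cd200 (edgeR FDR 0.00503) and 0.34 ± 0.08 for Cd47 (edgeR FDR 0.0220). Without the covariate they were, in the same order, 1.58, -1.10 and 0.47. The marker level and the cell type cannot be told apart between the groups, since every CD26- library had a higher marker level than every CD26+ library.

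**Figure D4:**
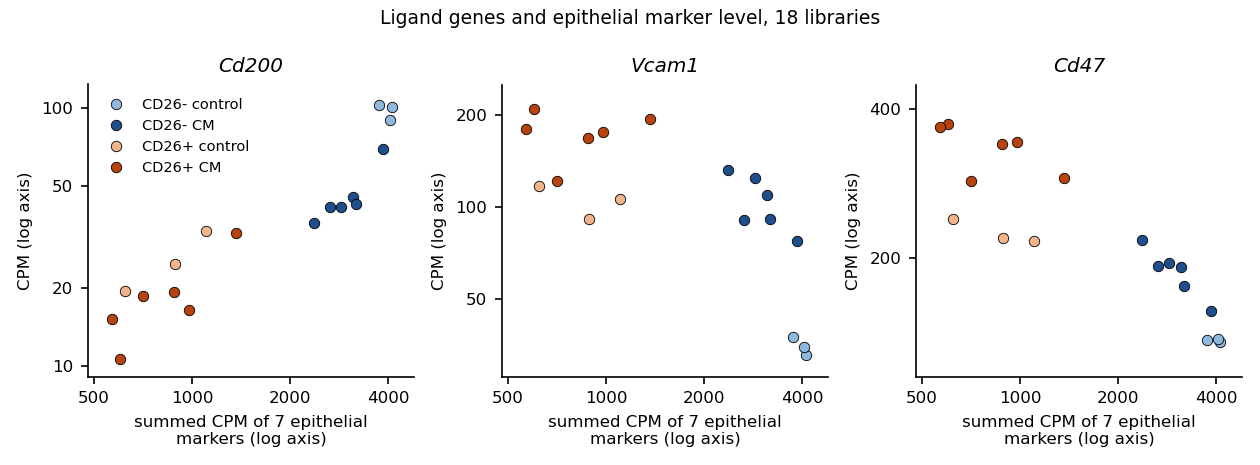
CPM of Cd200, Vcam1 and Cd47 (vertical log axes) against the summed CPM of 7 epithelial markers (horizontal log axes) in the 18 libraries, coloured by group. The CD26- libraries lie between 2369 and 4100 CPM of marker level and the CD26+ libraries between 570 and 1368 CPM. Replicate 7 has a higher marker level than replicate 3 (3844 against 3745 CPM) but a lower Cd200 level (69.3 against 103 CPM). They are a CM and a control library. Over the 18 libraries, r of log2 Cd200 with the mean log2 marker level was 0.951, and 0.901 with the group means taken out.

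The genes whose pattern over the 18 libraries was most like that of each ligand were ranked by Pearson r of log2 CPM. All such values share the 4 groups and the library depth and are a description. Cd200 was most like Krt17 (r = 0.99), a keratin of basal epithelium, Ptk2b (0.98) and Samd12 (0.98). Cd47 was most like Clmp, S1pr3 and Ifnar2 (0.98 each), which encode an adhesion molecule of cell junctions, a receptor of sphingosine-1-phosphate and a chain of the type I interferon receptor. Among the 3 genes most like Vcam1 were Ctsz (0.97), which encodes a lysosomal protease, and Nnmt (0.96), which methylates nicotinamide. Likeness was weaker for Cd274, with Jade1 (0.81), Tbc1d1 (0.81) and Cab39 (0.80), and for Icam1, with Smim15 (0.71), Emc6 (0.70) and Rida (0.70). By Spearman's rho, 0 of the 3 genes remained among the top 3 for Vcam1 and for Cd274, 1 for Cd200 and for Cd47, and 2 for Icam1.

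Of 16 other adhesion ligands, 12 were tested. CM raised 0 of them beside 7.88% of all genes and lowered 4 beside 7.28% in CD26- NFs, with a median log2 change of -0.25 beside 0.01 over all genes, while it raised 2 beside 15.2% and lowered 3 beside 13.4% in CD26+ NFs, with a median of -0.01 beside -0.00 over all genes. Alcam, an adhesion molecule bound by CD6 on T cells, fell from 245 ± 6.25 to 158 ± 25.7 CPM in CD26- NFs (log2 change -0.63, edgeR FDR 0.00268) and from 145 ± 10.9 to 71.3 ± 10.1 CPM in CD26+ NFs (-1.02, edgeR FDR 1.31e-05). Cx3cl1, a membrane-bound chemokine, fell by a log2 change of -1.45 (edgeR FDR 0.00285) and -1.68 (edgeR FDR 0.000197). The endothelial selectin gene Sele and the neighbours of Icam1, Icam4 and Icam5, had at most 14 counts (Sele), 0 counts (Icam4) and a mean of about 1.00 CPM in CD26+ NFs in CM (Icam5).

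Of 15 other checkpoint and inhibitory ligands, 13 were tested. CM raised 3 and lowered 2 in CD26- NFs (7.88% and 7.28% of all genes), and raised 7 and lowered 0 in CD26+ NFs (15.2% and 13.4% of all genes), with a median log2 change of 0.01 in CD26- NFs beside 0.01 over all genes, and of 0.21 in CD26+ NFs beside -0.00. Nectin2, a ligand of the inhibitory receptors PVRIG and TIGIT, rose by 0.54 (edgeR FDR 9.33e-05) in CD26- and by 0.45 (edgeR FDR 3.83e-05) in CD26+ NFs. Lgals3, which encodes galectin-3, rose by 1.01 (edgeR FDR 0.0381) and by 2.04 (edgeR FDR 0.000234).

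Of 17 receptors and binding partners of the ligands, 9 were tested, of which CM raised 2 and lowered 1 in CD26- NFs, where the shares of all genes were 7.88% and 7.28%, and raised 6 and lowered 0 in CD26+ NFs, where they were 15.2% and 13.4%. The median log2 change of the 9 was 0.23 and 0.54. Sirpa, the receptor of CD47, was expressed by the NFs and rose by 0.66 (edgeR FDR 0.00170) and 0.37 (edgeR FDR 0.0180). Thbs1, a secreted ligand of CD47, rose from 4427 ± 114 to 11292 ± 2066 CPM in CD26+ NFs (log2 change 1.35, edgeR FDR 4.74e-06) and by more than in CD26- NFs, where it had 0.23 (edgeR FDR 0.286; difference 1.12, edgeR FDR 0.00427). Itga4, a subunit of the VCAM-1 receptor that was singled out after its values were seen, rose from 0.779 ± 0.0984 to 9.65 ± 4.66 CPM in CD26- NFs (log2 change 3.61, edgeR FDR 0.00955) and from 0.384 ± 0.0952 to 7.29 ± 6.08 CPM in CD26+ NFs (4.23, edgeR FDR 0.00388). Itgb2, the shared subunit of LFA-1 and Mac-1, and Itgb7, both also singled out after their values were seen, were scarce: in CD26+ NFs Itgb2 was at 0.209 ± 0.203 CPM in control medium, near the floor of 3 counts, and at 0.815 ± 0.512 CPM in CM, and Itgb7 was at 0.562 ± 0.105 and 1.99 ± 1.51 CPM. Their tests passed in CD26+ NFs (edgeR FDR 0.0342 and 0.0460) and not in CD26- NFs (edgeR FDR 0.542 and 0.157). The difference in CM effect passed for neither, with 1.41 for Itgb2 (edgeR FDR 0.357) and 0.34 for Itgb7 (edgeR FDR 0.875). Pdcd1 had at most 1 count, Cd200r1 5 counts and Cd200r3 6 counts in a library.

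Among 9 genes for shedding and surface turnover of the ligands, CM raised 0 and lowered 2 in CD26- NFs beside 7.88% and 7.28% of all genes, and raised 3 and lowered 1 in CD26+ NFs beside 15.2% and 13.4%, with medians of -0.02 and 0.06 on the log2 scale. Adam17, the sheddase of VCAM-1, had a log2 change of 0.12 (edgeR FDR 0.128) in CD26- NFs and rose by 0.34 (edgeR FDR 0.000170) in CD26+ NFs. The difference between these effects did not pass (0.21, edgeR FDR 0.0810). Cmtm4, which stabilises PD-L1 protein, had -0.02 (edgeR FDR 0.860) in CD26- NFs and rose by 0.56 (edgeR FDR 3.13e-06) in CD26+ NFs, and the difference passed (0.58, edgeR FDR 0.00158). Cmtm6 of the same list, singled out after its values were seen, did not rise. It had -0.21 (edgeR FDR 0.0233) in CD26- NFs and -0.09 (edgeR FDR 0.305) in CD26+ NFs.

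All 17 regulators of the NF-kB and interferon pathways were tested. CM raised 3 and lowered 2 in CD26- NFs, beside 7.88% and 7.28% of all genes, and raised 8 and lowered 3 in CD26+ NFs, beside 15.2% and 13.4%, with medians of 0.02 and 0.16 on the log2 scale. The difference in CM effect was positive for 7 beside 4.53% and negative for 1 beside 3.01%. Nfkb1 rose from 135 ± 3.25 to 154 ± 5.17 CPM in CD26- NFs (log2 change 0.20, edgeR FDR 0.0494) and from 118 ± 2.58 to 245 ± 24.3 CPM in CD26+ NFs (1.05, edgeR FDR 3.44e-08), with a difference of 0.85 (edgeR FDR 0.000459). Ifngr2, a chain of the interferon-gamma receptor, rose by 0.27 (edgeR FDR 0.0434) and by 0.95 (edgeR FDR 1.19e-06), with a difference of 0.68 (edgeR FDR 0.00464).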

How the data were processed

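Polyadenylated RNA of 18 cultures was sequenced single-end from stranded libraries. The authors deposited a table of raw read counts, with Ensembl genes as rows and libraries as columns, and did not normalize it. The submitters' processing notes name HISAT2 2.1.0, HTSeq and GRCm38. The annotation release and the strand setting of the counting were not given in the sources used here. Genes on the opposite strand that overlap exons of Vcam1, Icam1 and Cd274 had 18, 11 and 4 counts over all libraries. How many reads of the 3 ligands such an overlap could remove was not tested. Gene positions are from GENCODE models of GRCm38, which had the same start and end as the table for 54820 of 55486 genes.

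The members and gene lists were chosen with earlier results of these data known. Groups followed the labels. Low counts were filtered with filterByExpr by group, which left 14273 genes (99.9% of the counts in the library with the lowest share), and 1 row without a gene (0 counts) was left out. TMM scaling was applied, and genes were tested by quasi-likelihood in edgeR 4.0.16 (R 4.3.3), with 1 coefficient per group and 14 residual degrees of freedom. The biological coefficient of variation was 0.117. CPM are relative to the TMM-scaled library size. The study used DESeq2, which was run as an alternative (version 1.42.0). Lines were tested on the 12 CM libraries with 5 residual degrees of freedom. The code of the fit was run on simulated counts, as a check of the code only and not of the results. No library was a copy of another: between replicates, chi-square divided by its degrees of freedom was at least 3.03. The labels give no batch.

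From each gene list the 2 genes with the smallest p in a CM effect were named, taken from genes that passed and reached a group mean of 5 CPM, and for each ligand the 3 most similar genes. Of these similar genes, 1 is not reported here, nor are some alleles of the mice. CD26- and CD26+ libraries given the same line deviated together from their group means, with r from 0.253 to 0.404 in all 6 pairs, so an alternative fit blocked on the line (replicate block). The epithelial covariate was added after seeing the data. Other alternatives were RLE and upper-quartile scaling, no filter, the groups of a comparison alone, the study's fold limit, and leaving out each library. Promoter sequences were taken from RefSeq. Intervals and floors cover counting error only where they rest on counts of 0.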

Additional observations from a re-analysis of the deposited data

Results flagged for a closer look

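Of 10 groups of CM libraries tested for a library that stands apart (5 ligands in both cell types), 1 did. Cd200 in CD26- NFs in CM had its highest level in replicate 7, given CM of 13-MCB-44, at 69.3 CPM, where the other 5 libraries lay between 35.9 and 45.2 CPM. The gap took 0.723 of the group's range. Chance flags about 1 in 20 groups. The same line gave the highest Cd200 level in CD26+ NFs, 32.8 CPM. Without replicate 7, the Cd200 fall in CD26- NFs passed as it did with it.

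The CM effect on Vcam1 differed between the cell types, with a log2 fold change lower by a difference of -0.83 ± 0.23 in CD26+ than in CD26- NFs (edgeR FDR 0.0376). In 10 of 18 fits with 1 library left out the difference missed the threshold, as it did with the epithelial covariate (-0.77, edgeR FDR 0.0644). With the line as a replicate block it passed (-0.83, edgeR FDR 0.00674).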

How the results depend on the processing

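Other scalings, DESeq2, no filter and separate fits kept every count of ligands past the FDR within 1.5 times. Of 175 results for single ligands under other settings, leaving libraries out apart, 165 kept their direction and side of the threshold. With the study's fold limit, 0 ligands were called in each of the 5 comparisons. Leaving out 1 library, the counts ran from 3 to 3 (CM effect, CD26-), 2 to 4 (CM effect, CD26+; 4 without replicate 16), 4 to 4 (control medium), 3 to 3 (CM), 0 to 1 (difference in CM effect) and 0 to 2 (lines). Vcam1's difference in CM effect ran from -0.93 to -0.75 and was lost without replicates 1, 2, 3, 5, 6, 8, 10, 11, 13 or 17. Icam1, never called, changed sign, with its CM effect in CD26- NFs at -0.0330 to 0.40 (below 0 without replicate 2) and its difference in CM effect at -0.15 to 0.29 (below 0 without replicates 1, 3, 13, 15 or 16). Without the low-count filter the Vcam1 line test passed (FDR 0.00200).

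With the epithelial covariate, 1 ligand passed in control medium, 1 in CM and 0 in the difference (Vcam1, FDR 0.0644). Cd200 in CM changed sign to 0.19, as did Icam1 in control medium (0.00634) and in the difference (-0.0230), and Cd274 in control medium, at -2.16, missed the threshold (FDR 0.0610). The CM effect on Cd200 in CD26+ NFs passed (-0.33, FDR 0.0447). With the line as a replicate block, 3 ligands passed in CM and 1 in the difference (Vcam1, -0.83, FDR 0.00674), and no call changed. Counts of Cd274 and Pdcd1lg2 limit what could be seen in these genes. On unscaled totals the mean of Cd47 in CD26- NFs in control medium was 142 CPM.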
